A study of Mus musculus with 8 samples.

Results

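The Serpina3 genes described here are Serpina3c, Serpina3f, Serpina3g, Serpina3i, Serpina3m and Serpina3n, 6 of the 14 genes of that name and of the 68 serpin genes among the 47069 genes in the count tables. They were chosen by symbol, with their read counts across the 4 groups known, so their own levels and fold changes are given as a description and without a test. The samples were cultures of C57BL/6 embryonic stem (ES) cells, whose poly-A RNA was sequenced. The groups were cells with Pcgf3 knocked out (Pcgf3KO), cells with Pcgf5 knocked out (Pcgf5KO), cells with both knocked out (DKO) and wild type cells (WT), with 2 libraries each. The knockouts were made with Cas9, and all 4 groups grew on MEF feeder cells, mouse embryonic fibroblasts whose division is blocked with mitomycin-C, in fetal calf serum and leukemia inhibitory factor (LIF). The labels give no deleted exon, no number of clones per genotype and no statement that the libraries of a group came from separate cultures, so the spread between them may be technical. The RNA of feeder cells can be in every library, and in such bulk samples fewer cells of a type and less RNA per cell cannot be told apart.

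Serpins are mostly secreted proteins that trap a target protease by offering it a reactive loop as bait and changing shape once the loop is cleaved. Humans have a single SERPINA3 gene, which encodes the acute phase plasma protein alpha-1-antichymotrypsin, while the mouse locus has expanded into a cluster whose members differ mainly in that loop. In mouse liver and brain, Serpina3 genes are known for strong induction by inflammation, in part through the cytokine-activated factor STAT3, and LIF, the cytokine in ES cell medium, acts through the same factor. Pcgf3 and Pcgf5 encode RING finger subunits of variant Polycomb repressive complexes, which ubiquitinate histone H2A.

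The 14 genes lie on chromosome 12 within 301.6 kb (104112724 to 104414329, mm10, from the deposited tables), and the 6 members within 267.9 kb of it. Serpina3c (104146382 to 104153870) is on the minus strand. Serpina3f (104214544 to 104221129), Serpina3g (104236245 to 104241939), Serpina3i (104263122 to 104269372), Serpina3m (104338486 to 104394257) and Serpina3n (104406729 to 104414329) follow on the plus strand. Between the longest coding transcripts of 2 members (GENCODE M21), identity over aligned bases was 76.8% to 89.6%, with a median of 80.4% over the 15 pairs. Serpina3c and Serpina3m were the most alike pair at 89.6%, and Serpina3i was most like Serpina3f at 88.1% and Serpina3g at 87.4%.

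Because paralogs may share reads, the stretches of transcript that occur in no other gene were counted. Of all 50-base stretches, 84.1% of those of Serpina3i and 80.9% of those of Serpina3m were found in no other GENCODE gene, and for the other members the share was 84.5% to 95.8%. With 100-base stretches it was 97.8% for Serpina3i, 93.9% for Serpina3m and at least 96.5% for the other members. Serpina3i shared most with Serpina3h, a pseudogene next to it, at 9.82% of its 50-base stretches. Serpina3m shared most with Serpina3k, a liver serpin known to bind kallikrein, at 16.0%. The Serpina3m model is 55.8 kb long because one of its 2 transcripts begins at the first exon of Serpina3k (104338486 to 104338545, 60 bases in both genes), while the other begins at 104387164. How reads that match several genes were counted was not given in the sources used here.

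RefSeq promoter windows (build GRCm38.p6, from 250 bases before to 50 after the annotated start) were found for 5 of the 6 members, and Serpina3m has no entry. They are shown because Serpina3i, the member that was higher in every knockout library, sits beside close copies that were hardly detected. Capitals mark matches to TTCNNNGAA, the palindromic core that STAT factors bind, which reads the same on both strands. The windows are those of Serpina3i (chr12:104262872-104263171, plus strand), Serpina3g (chr12:104235897-104236196, plus strand), Serpina3f (chr12:104214294-104214593, plus strand), Serpina3n (chr12:104406458-104406757, plus strand) and Serpina3c (chr12:104153823-104154122, minus strand), each written 5′ to 3′ along the gene.
Serpina3i: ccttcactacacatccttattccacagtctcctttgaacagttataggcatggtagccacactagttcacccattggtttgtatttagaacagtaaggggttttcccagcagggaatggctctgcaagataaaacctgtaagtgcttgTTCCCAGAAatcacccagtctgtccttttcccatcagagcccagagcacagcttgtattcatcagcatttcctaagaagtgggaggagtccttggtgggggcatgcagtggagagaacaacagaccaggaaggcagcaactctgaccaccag
Serpina3g: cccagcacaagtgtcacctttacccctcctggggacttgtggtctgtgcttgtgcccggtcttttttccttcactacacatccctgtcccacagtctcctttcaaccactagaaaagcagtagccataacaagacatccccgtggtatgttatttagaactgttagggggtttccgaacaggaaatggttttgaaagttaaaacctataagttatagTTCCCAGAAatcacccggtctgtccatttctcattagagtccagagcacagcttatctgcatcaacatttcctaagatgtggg
Serpina3f: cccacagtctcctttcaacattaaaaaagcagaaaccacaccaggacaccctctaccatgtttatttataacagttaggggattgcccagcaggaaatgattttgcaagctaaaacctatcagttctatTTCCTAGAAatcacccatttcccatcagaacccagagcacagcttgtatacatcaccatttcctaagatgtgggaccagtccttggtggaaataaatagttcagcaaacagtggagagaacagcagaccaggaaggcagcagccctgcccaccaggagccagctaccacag
Serpina3n: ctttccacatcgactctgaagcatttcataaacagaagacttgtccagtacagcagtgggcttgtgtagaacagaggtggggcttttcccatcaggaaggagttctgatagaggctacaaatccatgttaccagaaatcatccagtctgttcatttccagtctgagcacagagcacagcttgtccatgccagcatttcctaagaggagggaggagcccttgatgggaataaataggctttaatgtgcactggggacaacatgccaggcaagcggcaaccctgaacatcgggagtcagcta
Serpina3c: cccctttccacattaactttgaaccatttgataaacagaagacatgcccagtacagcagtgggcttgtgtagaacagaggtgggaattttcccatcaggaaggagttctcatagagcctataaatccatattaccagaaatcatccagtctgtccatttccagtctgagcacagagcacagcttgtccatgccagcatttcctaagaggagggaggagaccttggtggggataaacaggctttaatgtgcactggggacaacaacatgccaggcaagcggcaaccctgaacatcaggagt

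The same 9 letters, TTCCCAGAA, stood 102 to 94 bases before the start of Serpina3i and 33 to 25 bases before that of Serpina3g. Distances are from the RefSeq starts, and the Serpina3g window (to 104236196) ends before the deposited gene start (104236245), so its distance depends on the annotation. Serpina3f held TTCCTAGAA 121 to 113 bases before its start, and the windows of Serpina3n and Serpina3c held no match. Of all 32851 mouse promoter windows of this length, 8.30% held the core. The match was thus shared between Serpina3i and copies that were hardly detected, and a match is a description, not a binding site. The window of Serpina3i aligned with that of Serpina3f at 82.9% identity and with that of Serpina3g at 79.7%, while the windows of Serpina3n and Serpina3c aligned with each other at 93.5%. A second RefSeq window of Serpina3f (chr12:104214383-104214682, plus strand, not printed) held the same match 210 to 202 bases before its start. The windows were poor in CpG, with 0 in Serpina3i, 0 and 1 in the windows of Serpina3f, 1 in Serpina3c, 3 in Serpina3n and 4 in Serpina3g, against a median of 7 over all windows.

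Total counts were 12652616 to 19923964 in the 7 full tables. The WT replicate 1 table used here ends early and lists the first 8093 genes (17.2% of the list), among them Serpina3g, Serpina3i and Serpina3m but not Serpina3c, Serpina3f and Serpina3n. Levels on the 8-library scale are therefore CPM (counts scaled to library size) over the genes listed in all 8 tables, and levels on the 7-library scale are CPM over all genes without WT replicate 1. Pcgf3 had 66.1 and 60.5 CPM in Pcgf3KO, 86.6 and 67.2 CPM in DKO, 92.3 and 94.1 CPM in Pcgf5KO and 110 CPM in WT replicate 2, so the transcript was lower but still present in the cells edited at it. Pcgf5 had 12.3 and 9.06 CPM in Pcgf5KO, 13.5 and 13.9 CPM in DKO, 17.3 and 17.5 CPM in Pcgf3KO and 20.7 CPM in WT replicate 2. ES cell markers (8 genes, all detected) summed to 2869 to 3475 CPM in the knockout libraries and 2764 CPM in WT replicate 2. Replicates correlated across genes at r = 0.985 in DKO, the lowest of the groups, and at 0.992 or more in the other 3 groups.

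Within the cluster, reads came almost only from Serpina3m and Serpina3i. Serpina3m held 85.9% to 97.2% of the counts of the 6 members in each of the 7 full libraries. Serpina3c and Serpina3f had 0 counts in all 7 libraries that list them, and Serpina3g had 1 count in WT replicate 1 and 0 in the other 7. Serpina3n had 1 and 3 counts in Pcgf3KO, 0 and 0 in Pcgf5KO, 1 and 2 in DKO and 0 in WT replicate 2. A count of 0 allows up to 3 counts, which is 0.151 to 0.237 CPM in the full libraries, and no fold change is given for these 4 members.

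**Figure D1:**
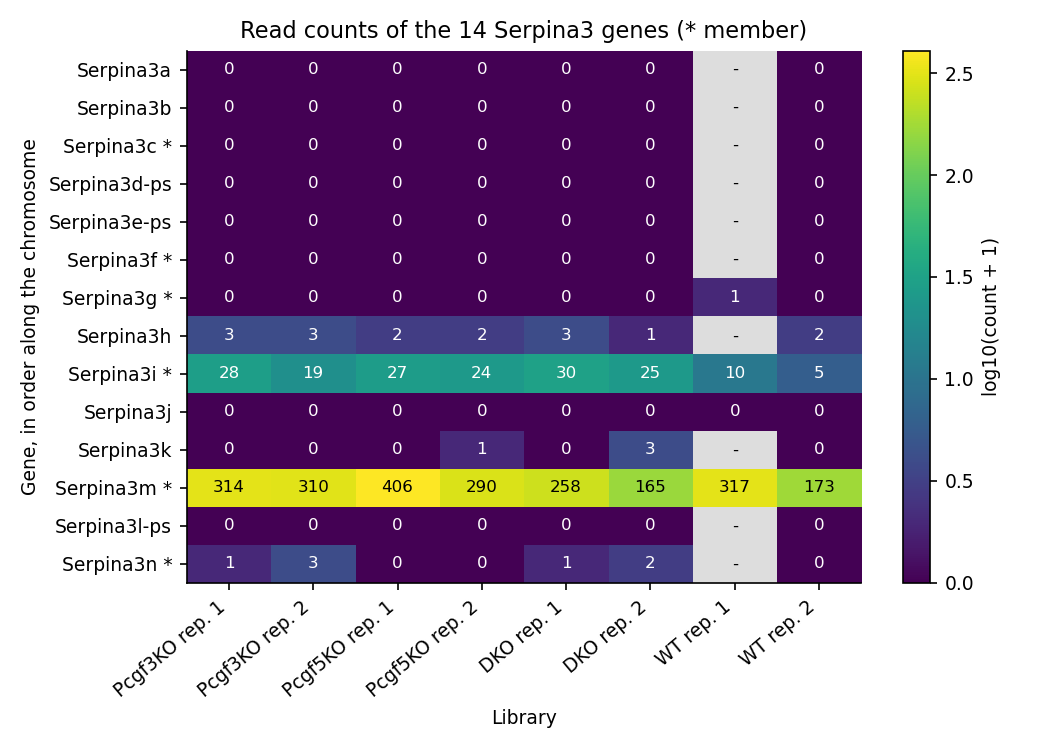
Read counts of the 14 Serpina3 genes, in chromosome order, in each library (colour is log10 of count + 1, a dash marks a gene not listed in that table, and a star marks a member). Serpina3m has 165 to 406 counts and Serpina3i 5 to 30 in every library, while no other Serpina3 gene exceeds 3.

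Serpina3g, known in mouse lymphocytes as an inhibitor of lysosomal cathepsins, and Serpina3n, a secreted inhibitor that marks reactive astrocytes in the mouse brain, were thus at or below the detection floor in these cultures. The 8 other Serpina3 genes were likewise near 0. Serpina3h had 1 to 3 counts in all 7 full libraries, Serpina3k had 1 count in Pcgf5KO replicate 2 and 3 in DKO replicate 2, and the other 6 had 0. The counts of Serpina3h were 3 and 3 in Pcgf3KO, 2 and 2 in Pcgf5KO, 3 and 1 in DKO and 2 in WT replicate 2, all at or below the floor of 3 counts, so no difference between groups could be read for it.

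Serpina3i was higher in all knockout groups. Its raw counts were 28 and 19 in Pcgf3KO, 27 and 24 in Pcgf5KO, 30 and 25 in DKO, and 10 and 5 in WT. On the 8-library scale these were 7.95 and 6.00 CPM in Pcgf3KO, 8.97 and 10.9 CPM in Pcgf5KO, 8.94 and 6.99 CPM in DKO, and 2.86 and 1.61 CPM in WT. All 6 knockout libraries lay above both WT libraries, and in each group the 95% counting interval of the ratio between the replicates included 1. The share of all genes with this order, or with any other order of libraries given for a member, was not counted.

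The mean level of Serpina3i was 6.98 ± 1.37 CPM in Pcgf3KO, 9.91 ± 1.34 CPM in Pcgf5KO, 7.96 ± 1.38 CPM in DKO and 2.23 ± 0.88 CPM in WT (SD, n = 2 each). The fitted log2 fold change against WT was 1.61 ± 0.44 in Pcgf3KO, 2.10 ± 0.44 in Pcgf5KO and 1.80 ± 0.43 in DKO (± standard error, 8 libraries). From the summed counts, the ratio to WT was 3.10 in Pcgf3KO (95% interval 1.70 to 5.97), 4.31 in Pcgf5KO (2.38 to 8.25) and 3.50 in DKO (1.95 to 6.66), where the exact Poisson intervals cover counting error only. The order of the group means was Pcgf5KO, DKO, Pcgf3KO and WT. Among the knockout groups, Pcgf3KO and Pcgf5KO did not overlap, whereas DKO overlapped Pcgf3KO and lay just under Pcgf5KO.

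Over all genes without WT replicate 1, Serpina3i had 1.41 and 1.06 CPM in Pcgf3KO, 1.60 and 1.94 CPM in Pcgf5KO, 1.58 and 1.24 CPM in DKO and 0.285 CPM in WT replicate 2. The log2 fold changes of DKO were 0.18 ± 0.34 against Pcgf3KO and -0.32 ± 0.34 against Pcgf5KO, both smaller than their standard errors. By summed counts, DKO stood at 1.13 times the Pcgf3KO level (95% counting interval 0.749 to 1.70) and 0.805 times the Pcgf5KO level (0.540 to 1.20).

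**Figure D2:**
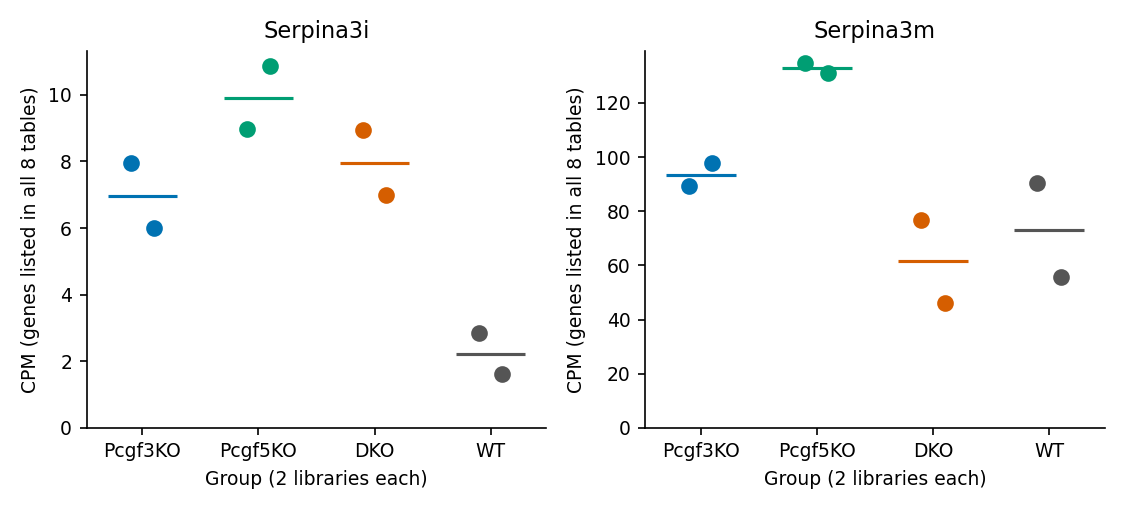
CPM of Serpina3i and Serpina3m (vertical axes, scaled to the genes listed in all 8 tables) by group, with a point for each library and a line at the group mean. For Serpina3i the 6 knockout libraries lie between 6.00 and 10.9 CPM, above both WT libraries at 2.86 and 1.61 CPM. For Serpina3m only the Pcgf5KO libraries, at 135 and 131 CPM, lie clear of all others. The share of all genes with these orders was not counted.

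Serpina3m was the dominant member and followed another order. It had 314 and 310 raw counts in Pcgf3KO, 406 and 290 in Pcgf5KO, 258 and 165 in DKO, and 317 and 173 in WT. On the 8-library scale these were 89.1 and 98.0 CPM in Pcgf3KO, 135 and 131 CPM in Pcgf5KO, 76.9 and 46.1 CPM in DKO, and 90.6 and 55.6 CPM in WT. The Pcgf5KO libraries were the highest, and those of Pcgf3KO and DKO overlapped the range of WT.

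The DKO and WT libraries each held one high and one low value. Replicate 1 was 1.67 times replicate 2 in DKO (95% counting interval 1.37 to 2.04) and 1.63 times in WT (1.35 to 1.97), so both pairs differed beyond counting error. The ratio was 0.910 in Pcgf3KO (0.775 to 1.07) and 1.03 in Pcgf5KO (0.882 to 1.20). Group means were 93.5 ± 6.25 CPM in Pcgf3KO, 133.0 ± 2.56 CPM in Pcgf5KO, 61.5 ± 21.8 CPM in DKO and 73.1 ± 24.8 CPM in WT (SD, n = 2 each).

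The fitted log2 fold change of Serpina3m against WT was 0.35 ± 0.24 in Pcgf3KO, 0.86 ± 0.24 in Pcgf5KO and -0.26 ± 0.25 in DKO (8 libraries). Without WT replicate 1, the one with the higher level, these became 0.75, 1.26 and 0.14, so the direction in DKO turned. Without WT replicate 2 they became 0.05, 0.55 and -0.58. The direction in DKO turned as well without DKO replicate 2 (0.05), and without DKO replicate 1 the value was -0.68. By replicate number, DKO was below WT in both, at 76.9 against 90.6 CPM in replicate 1 and 46.1 against 55.6 CPM in replicate 2. The labels name no shared batch for same-numbered libraries, and DKO replicate 1 lay above WT replicate 2. In the fit over all genes, Serpina3m had 13.6 and 8.16 CPM in DKO, 15.8 and 17.3 CPM in Pcgf3KO and 24.0 and 23.4 CPM in Pcgf5KO. The log2 fold change of DKO was -0.61 ± 0.20 against Pcgf3KO and -1.13 ± 0.20 against Pcgf5KO, and in both comparisons the DKO libraries lay below both single knockout libraries. The value against Pcgf3KO was -0.28 without DKO replicate 2 and -1.03 without DKO replicate 1, and that against Pcgf5KO was -0.80 and -1.54.

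**Figure D3:**
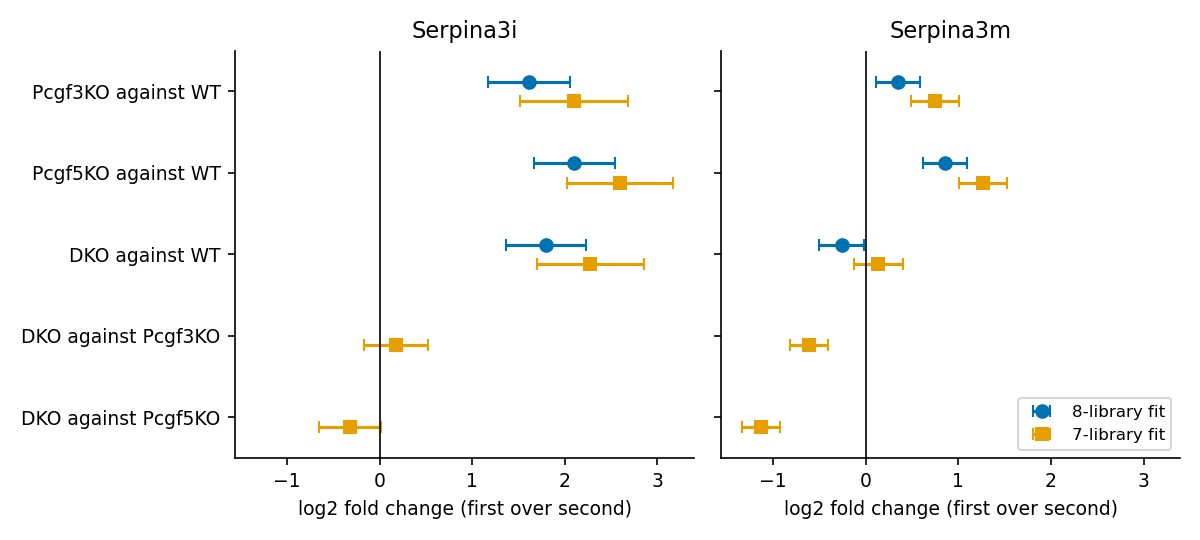
Fitted log2 fold changes of Serpina3i and Serpina3m (horizontal axes, first group over second), with standard errors as bars, in the fit over 8 libraries (circles) and over 7 libraries (squares). Serpina3i is above 0 against WT in all 3 knockout groups and within 1 standard error of 0 in DKO against either single knockout. Serpina3m is highest in Pcgf5KO and lower in DKO than in either single knockout. Pcgf5KO against Pcgf3KO is not shown.

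The members thus did not move as a block. Per kb of exon, which allows levels of genes to be compared, Serpina3m stood at 51.8 and 57.0 CPM per kb in Pcgf3KO, 78.4 and 76.3 in Pcgf5KO, 44.7 and 26.8 in DKO, and 52.7 and 32.3 in WT. Serpina3i stood at 3.57 and 2.70 CPM per kb in Pcgf3KO, 4.03 and 4.88 in Pcgf5KO, 4.02 and 3.14 in DKO, and 1.28 and 0.722 in WT. The level of Serpina3m was 14.5 and 21.1 times that of Serpina3i in Pcgf3KO, 19.4 and 15.6 times in Pcgf5KO, 11.1 and 8.54 times in DKO, and 41 and 44.8 times in WT. WT libraries held the highest ratios and DKO libraries the lowest, with no overlap between WT and any knockout group. The WT ratios rest on 10 and 5 counts of Serpina3i, whose low level in WT is given above, so they are no separate result.

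For reference, edgeR (quasi-likelihood test, adjusted p of at most 0.05) called 2.36% of 15669 genes in Pcgf3KO against WT, 2.99% in Pcgf5KO against WT, 3.22% in DKO against WT, 1.74% in DKO against Pcgf3KO and 2.28% in DKO against Pcgf5KO in the 7-library fit. In the 8-library fit it called 5.51%, 8.62% and 8.11% of 2702 genes against WT in Pcgf3KO, Pcgf5KO and DKO. Only Serpina3i and Serpina3m passed the filter on low counts. Both were called in Pcgf5KO against WT in each fit, Serpina3i in DKO against WT in the 8-library fit, and Serpina3m in DKO against Pcgf5KO. Neither was called in Pcgf3KO against WT in either fit, where an unadjusted edgeR p was under 0.05 for 2 of 2 (7 libraries) and 1 of 2 (8 libraries) and DESeq2 called 0. Neither was called in the 7-library fit in DKO against WT or against Pcgf3KO (1 of 2 at an unadjusted p under 0.05, DESeq2 0). Since the counts of these groups chose the members, nothing is read from these calls.

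**Figure D4:**
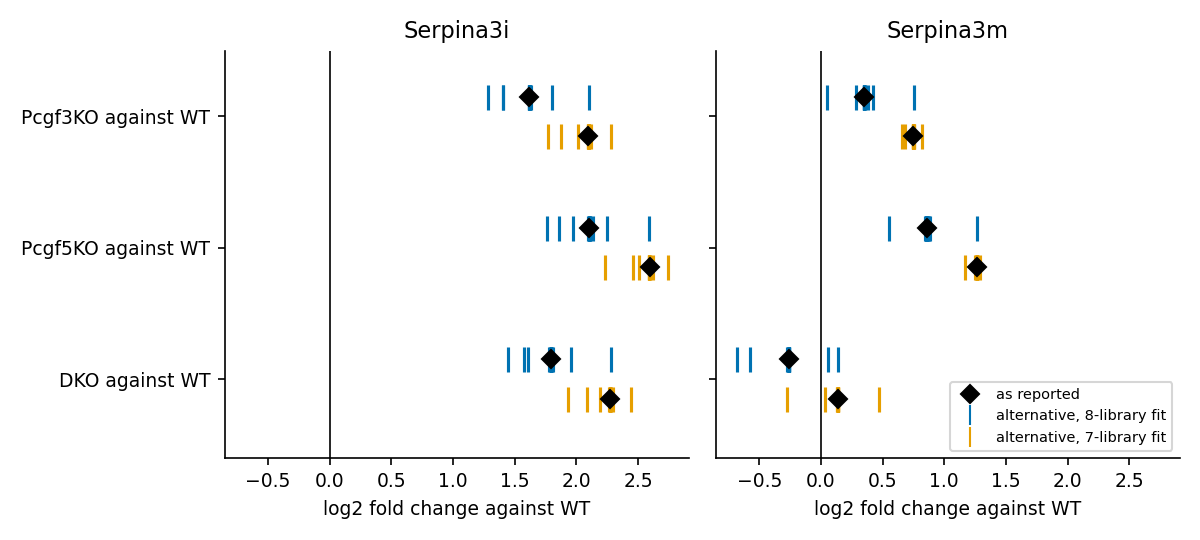
Log2 fold changes against WT of Serpina3i and Serpina3m (horizontal axes) as reported (diamonds) and under each alternative processing or left-out library (ticks), for the 8-library and 7-library fits. Serpina3i stays between 1.28 and 2.74 throughout, and Serpina3m in DKO lies on both sides of 0.

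The genes whose log2 CPM followed a member most closely over the 7 full libraries, among 10642 genes, were listed as a description. The points share 1 WT library and the same group steps. For Serpina3i they were Phf12, a subunit of a histone deacetylase complex (Pearson r = 0.98), Tcp11, a testis gene (r = 0.98), and Dusp27 (r = 0.98). Dusp27 had 33.9 and 33.7 CPM in Pcgf3KO, 41.1 and 39.6 CPM in Pcgf5KO, 43.2 and 34.2 CPM in DKO and 14.97 CPM in WT replicate 2. For Serpina3m they were Fkbp2, a prolyl isomerase of the endoplasmic reticulum (r = 0.99), Cdyl, a chromodomain corepressor (r = 0.98), and Igf2bp1, an RNA-binding protein (r = 0.98). Cdyl had 130.3 and 130.9 CPM in Pcgf3KO, 142 and 139 CPM in Pcgf5KO, 118 and 108 CPM in DKO and 108 CPM in WT replicate 2, a narrower span than that of Serpina3m.

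Around the cluster, most listed non-serpin genes had no count, but 2 were clearly detected. Dicer1 had 2419 to 4785 counts and Clmn 351 to 644 counts in the full libraries. Of the 19 non-serpin genes within 500 kb of a member, 15 had no count in the 7 full libraries and 2, Dicer1 and Clmn, were tested. Gsc, the goosecoid homeobox gene beside Serpina3n, had 2 and 4 counts in Pcgf3KO, 5 and 1 in Pcgf5KO, 1 and 9 in DKO and 2 in WT replicate 2. Clmn, which encodes a calponin-like membrane protein, rose in DKO against WT (log2 fold change 0.59 ± 0.12, edgeR adjusted p = 0.037), but DESeq2 did not call it and the call was lost without any 1 of the Pcgf3KO or Pcgf5KO libraries. Dicer1, the RNase of microRNA maturation and the nearest tested gene on that side, had log2 fold changes of 0.17 ± 0.12 in Pcgf3KO, 0.11 ± 0.12 in Pcgf5KO and 0.31 ± 0.12 in DKO against WT and passed in none. No gene on the other side was tested.

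Other serpins were measured for comparison with the members. Of 54 in the tables, 21 had no count in the 7 full libraries and 14 were tested. Against WT, 1 rose and 3 fell in Pcgf3KO, 1 rose and 3 fell in Pcgf5KO, and 1 rose and 4 fell in DKO. Leaving out 1 library at a time, 1 to 6, 0 to 8 and 2 to 7 fell, with the fewest without a single knockout library and the most without a DKO library. The median log2 fold change of the 14 was -0.23, -0.42 and -0.48 in these comparisons, against 0.00, 0.00 and 0.01 over all genes tested.

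The serpin that rose was Serpinf1, which encodes the secreted factor PEDF. It had 23.8 and 23.6 CPM in Pcgf3KO, 25.1 and 23.6 CPM in Pcgf5KO, 21.3 and 26.3 CPM in DKO and 6.15 CPM in WT replicate 2, and its log2 fold change was 1.95 ± 0.18, 1.99 ± 0.19 and 1.95 ± 0.18 (edgeR adjusted p = 0.0012, 0.0012 and 0.00099). All 6 knockout libraries were above that 1 WT library, and the share of all genes with this order was not counted. Serpinh1, a collagen chaperone, fell against WT in all 3 groups, by 0.58 in Pcgf3KO, 0.47 in Pcgf5KO and 0.58 in DKO on the log2 scale (edgeR adjusted p = 0.024, 0.047 and 0.021). Serpine2 fell in both single knockouts, and Serpini1 in DKO. Between knockouts, Serping1, the complement C1 inhibitor, rose in DKO against Pcgf3KO (0.59 ± 0.10, edgeR adjusted p = 0.025). No serpin passed in DKO against Pcgf5KO (2 of 14 at an unadjusted edgeR p under 0.05, DESeq2 0). However, 1 fell with a replicate block, and 1 rose and 1 fell with no filter on low counts. Serpins were also called there when either DKO library was left out. Of the main-fit calls named here, those of Serpinf1 in all 3 groups and of Serpini1 were kept under all 10 alternatives. The other main-fit calls were lost without 1 or more of the single knockout libraries.

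The sum of feeder fibroblast markers was lower in the knockout libraries than in WT replicate 2, as were several of these serpins. The 14 markers summed to 75.7 to 87.1 CPM in Pcgf3KO, 98.4 to 99.6 CPM in Pcgf5KO, 80.8 to 97.5 CPM in DKO and 136 CPM in WT replicate 2, with S100a4 at 0, and of 9 tested 3 fell in Pcgf3KO, 1 in Pcgf5KO and 3 in DKO against WT. Tagln, Mmp2, Thy1 and Col1a1 held most of each sum, and the markers did not all move together. Thy1 had 22.1 and 33.3 CPM in DKO against 19.8 CPM in WT replicate 2. In DKO against Pcgf3KO, Thy1 and Mmp2 rose and Tagln fell, and in DKO against Pcgf5KO, Tagln and Col1a2 fell. The part of feeder RNA in the falls of Serpine2 and Serpinh1 was not tested. Serpina3i and Serpinf1 were higher in the knockout libraries, where the feeder marker sum was lower than in WT replicate 2. The part of feeder RNA in their levels was not tested either. Visceral endoderm and hepatocyte markers, the second of which is a main site of Serpina3 expression, summed to 7.77 to 8.16 CPM in Pcgf3KO, 8.17 to 10.7 CPM in Pcgf5KO, 8.12 to 10.7 CPM in DKO and 10.7 CPM in WT replicate 2. Macrophage markers (6 genes) summed to 47.7 to 53.1 CPM in Pcgf3KO, 44.6 to 45.7 CPM in Pcgf5KO, 24.8 to 32.8 CPM in DKO and 39.3 CPM in WT replicate 2. Trophoblast markers (6 genes, with Tpbpa and Prl3d1 at 0) summed to 24.8 to 25.9 CPM in Pcgf3KO, 21.2 to 21.7 CPM in Pcgf5KO, 14.3 to 19.6 CPM in DKO and 17.7 CPM in WT replicate 2. The macrophage and trophoblast sums were lower in DKO than in either single knockout, as Serpina3m was, but 1 gene made up most of each. Of the 3 macrophage markers tested, Cd68 fell in DKO against Pcgf3KO (-0.85 ± 0.14, edgeR adjusted p = 0.020) and Pcgf5KO (-0.68 ± 0.14, edgeR adjusted p = 0.044). Csf1r (1.22 ± 0.59 and 0.71 ± 0.59) and Lyz2 (0.18 ± 0.56 and 0.18 ± 0.59) did not pass and had the other sign. Of the 3 trophoblast markers tested, Ascl2 fell in DKO against Pcgf3KO (-0.66 ± 0.13, edgeR adjusted p = 0.044) and did not pass against Pcgf5KO (-0.43 ± 0.14). Cdx2, at no more than 1.99 CPM in any library, had negative values that did not pass (-0.93 ± 0.73 and -1.58 ± 0.71). Against the single WT library, Cdx2 was also lower in DKO (-3.43 ± 0.65). Elf5 had positive values against the single knockouts that did not pass (0.40 ± 0.43 and 1.73 ± 0.52). The part of these cells in the level of Serpina3m was not tested.

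Of the LIF and STAT3 signalling list, the pathway known to induce Serpina3 genes elsewhere, all 25 genes were tested. Against WT, 2 rose and 1 fell in Pcgf3KO, 2 fell in Pcgf5KO, and 2 rose and 2 fell in DKO, with median log2 fold changes of 0.05, -0.08 and -0.08, against 0.00, 0.00 and 0.01 over all genes tested. Lif itself fell in Pcgf3KO (-1.04 ± 0.17, edgeR adjusted p = 0.015) and in Pcgf5KO (-1.15 ± 0.17, edgeR adjusted p = 0.011). Pim1, a kinase gene induced by STAT3, fell in Pcgf5KO and in DKO. Tfcp2l1, a pluripotency factor downstream of STAT3, rose in Pcgf3KO (0.48 ± 0.09, edgeR adjusted p = 0.033) and in DKO (0.77 ± 0.10, edgeR adjusted p = 0.0033). Klf4 rose in DKO (1.46 ± 0.23, edgeR adjusted p = 0.011), where Junb fell. Tyk2, a Janus kinase, rose in Pcgf3KO. In DKO against Pcgf5KO, where Serpina3m was lower, Tfcp2l1 and Klf4 rose and Gbx2 fell, and in DKO against Pcgf3KO Junb fell. Of these calls, those of Klf4 and Tfcp2l1 in DKO against WT were kept under all 10 alternatives, and the others were lost without 1 or more single knockout libraries.

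The acute phase list, the programme that Serpina3 genes belong to in liver, had 14 of 30 genes tested, with median log2 fold changes of 0.15 in Pcgf3KO, -0.06 in Pcgf5KO and -0.15 in DKO against WT. None was called in Pcgf3KO against WT (2 at an unadjusted edgeR p under 0.05, DESeq2 0). Fkbp5 rose in Pcgf5KO against WT (0.43 ± 0.09, edgeR adjusted p = 0.037). Saa3, which encodes a serum amyloid A protein, rose in DKO against WT (0.90 ± 0.19, edgeR adjusted p = 0.039), against Pcgf3KO (1.27 ± 0.16, edgeR adjusted p = 0.0058) and against Pcgf5KO (1.34 ± 0.16, edgeR adjusted p = 0.011). In DKO, Saa3 was thus higher than in the single knockouts, while Serpina3m was lower. DESeq2 did not call the Saa3 change against WT, and leaving out 1 single knockout library ended the Saa3 and Fkbp5 calls in at least 2 of 4 cases each.

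Of the interferon and NF-kB list, 18 of 24 genes were tested, with medians of -0.15, 0.06 and -0.01 in the same order. None was called in Pcgf3KO against WT (5 at an unadjusted edgeR p under 0.05, DESeq2 0), in DKO against Pcgf3KO (3, DESeq2 0) or in DKO against Pcgf5KO (1, DESeq2 0). Tnfaip3, an inhibitor of NF-kB signalling, fell in Pcgf5KO and DKO against WT, and B2m fell in DKO, but DESeq2 called neither Tnfaip3 change. Of the proteases that serpins can inhibit, 9 of 18 were tested, with medians of -0.28, -0.34 and -0.23, and 1, the cathepsin gene Ctsl, fell in DKO against WT (-0.60 ± 0.13, edgeR adjusted p = 0.039). No protease was called in Pcgf3KO against WT (2 of 9 at an unadjusted edgeR p under 0.05, DESeq2 0), in Pcgf5KO against WT (4 of 9, DESeq2 1) or in DKO against either single knockout (0 of 9 in both, DESeq2 0). Without DKO replicate 2, however, 3 proteases were called lower in DKO against Pcgf3KO and 5 against Pcgf5KO, and without DKO replicate 1, 1 and 2 were called higher. All calls of these 2 lists were lost without 1 or more of the single knockout libraries.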

How the data were processed

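Poly-A RNA libraries (NEBNext Ultra kit, which does not mark strand, per the labels' protocols) were deposited as whole-number read counts per Ensembl gene, per the file headers. TopHat2 2.0.12, Cufflinks 2.2.1, HTSeq 0.6.0 and mm10 come from the submitters' processing notes. The annotation release and strand setting were not given in the sources used here. Of 47069 identifiers, 46488 matched a symbol in GENCODE M21. No entry named no gene.

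Differences were tested with edgeR 4.0.16 (quasi-likelihood, TMM, filterByExpr, Benjamini-Hochberg adjustment over the whole table, threshold 0.05) in R 4.3.3, with all 4 groups in 1 fit. The 7-library fit (15669 genes, 3 residual degrees of freedom) omits WT replicate 1, so its single WT library is assumed to vary like the others. The 8-library fit (2702 genes, 4 residual degrees of freedom) uses genes listed in all tables. DESeq2 1.42.0 was an alternative. It gave no adjusted p to some genes, so its counts of calls can rest on fewer genes than those of edgeR. In the protease list, 5 genes had one in DKO against Pcgf3KO and 4 in DKO against Pcgf5KO, against 9 tested with edgeR. Transcripts and windows were aligned with Biopython 1.88. Members and lists were chosen with earlier results of these data known, and named genes are all members, up to 4 genes of each list with the smallest p in a comparison, the neighbours and the closest patterns, except for a gene that is not reported here.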

Additional observations from a re-analysis of the deposited data

How the results depend on the processing

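The log2 fold changes of Serpina3i against WT were positive under every alternative (11 each with 7 libraries, 13 each with 8) and ranged from 1.28 to 2.74. Those of Serpina3m in Pcgf5KO against WT were also positive throughout, from 0.55 to 1.29, as were those in Pcgf3KO, from 0.05 to 0.82, whereas in DKO against WT they ranged from -0.68 to 0.47. For the 192 alternative member fold changes, a reversal was counted only where the main fit called the member, and none was found there. Elsewhere, the sign of Serpina3i in DKO against Pcgf3KO changed in 2 of 12 alternatives (7 libraries). That of Serpina3m in DKO against WT changed in 1 of 11 (7 libraries) and 2 of 13 (8 libraries). Same-numbered libraries had deviations correlated at r = 0.21 between DKO and WT and 0.12 between Pcgf3KO and DKO. Both values lay above the 0.1 set for a replicate block, which was run as an alternative. In the other 4 pairs of groups r was -0.08 to -0.01, and the numbers were not taken as pairs in the main fit. A pairing of DKO with WT libraries was thus not excluded.

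The number of genes called depended strongly on the processing. With no filter on low counts it was 1105, 1222 and 1474 against WT in Pcgf3KO, Pcgf5KO and DKO, 1355 in DKO against Pcgf3KO and 2312 in DKO against Pcgf5KO (7 libraries), and 279, 354 and 373 against WT with 8 libraries. With a replicate block it was 499 in DKO against Pcgf3KO and 1532 in DKO against Pcgf5KO, and DESeq2 called 807 in the last. Of the members, no filter gave 2 calls in Pcgf3KO against WT, 1 in DKO against WT and 1 in DKO against Pcgf3KO (7 libraries) and 1 in Pcgf3KO against WT (8 libraries). In Pcgf5KO against WT, DESeq2 and the replicate block each gave 1 member (7 libraries) and DESeq2-style size factors gave 1 (8 libraries), and in DKO against WT DESeq2 gave 0 (8 libraries). In Pcgf5KO against WT with 7 libraries, DESeq2 gave an adjusted p to only 1 member, Serpina3m, and none to Serpina3i. The block changed no other member call, and ended the Clmn, B2m and Tnfaip3 calls in DKO against WT. In DKO against Pcgf5KO it raised the calls lower to 1 (from 0) among other serpins, 1 (from 0) in the interferon and NF-kB list and 3 (from 1) in the LIF list, and the calls higher to 2 (from 1) in the acute phase list, as in DKO against Pcgf3KO, and to 2 (from 0) among feeder markers.

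Leaving out each library in turn, the genes called against WT numbered 46 to 3167 in Pcgf3KO, 37 to 4119 in Pcgf5KO and 165 to 5379 in DKO, 7 to 5571 in DKO against Pcgf3KO and 3 to 6583 in DKO against Pcgf5KO (7 libraries). With 8 libraries they numbered 39 to 437 in Pcgf3KO, 33 to 629 in Pcgf5KO and 60 to 764 in DKO. The highest numbers came without a DKO library, the least alike pair, and the cause was not tested. Members called ranged from 0 to 2 in each comparison with WT and from 0 to 1 in DKO against either single knockout (7 libraries), and from 0 to 1, 0 to 2 and 0 to 1 with 8 libraries. Leaving out WT replicate 2 from the 7-library fit leaves no WT library and gave no value. Of 357 alternatives for 35 fold changes of called list genes, added after seeing the data, 251 kept the call, 106 lost it and 0 turned the direction. With 5 to 30 counts a library, depth limits the precision of Serpina3i.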
